A study of Mus musculus with 28 samples.

Results

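Gene expression of newborn rods was compared between postnatal day 4 (P4) and postnatal day 2 (P2), the earliest interval of a mouse time course. The comparison was chosen by the age in the array titles, and it took 7 of the 28 arrays, 4 at P4 and 3 at P2. The other 21 arrays covered P6, P10, P12, P21 and P28 and entered the fit for their estimate of the spread. The 4 P4 arrays and the 3 P2 arrays shared strain (C57Bl/6) and genotype (Nrlp-GFP), and the labels describe the retina as wild-type apart from the reporter. In that transgene the promoter of Nrl, a transcription factor that commits cells to the rod fate, drives green fluorescent protein, so the sort collected cells in which this promoter was active. Per the labels' protocols, retinas were opened into single cells with papain, GFP-positive cells were sorted, and a sample was kept only if a re-sort gave a purity of at least 97%. RNA (5 ng) was amplified over the whole transcript and hybridised to exon arrays, 1 per sample. Whether arrays of 1 age stem from different animals is not stated in the labels, and the p-values therefore describe only how far these samples spread, which may be technical in part.

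Rods are born when retinal progenitor cells leave the cell cycle, and in the mouse the last of them are born after birth. A dividing cell copies its DNA in S phase, with the licensing and replication factors, and then builds a spindle, attaches chromosomes to it through kinetochores, and separates them in mitosis. Genes for the later steps peak in G2 and mitosis, genes for the earlier steps at the border of G1 and S, and both sets are shut off in neurons. The newborn rod then spends days without an outer segment, and its genes for light detection are raised afterwards.

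The regulators that mark the rod lineage were measured at both ages. The log2 RMA level, a normalized brightness on a log2 scale, of Nrl was 9.82 ± 0.04 at P4 and 9.67 ± 0.11 at P2 (mean ± SD, n = 4 and 3). Crx, a factor of all photoreceptors, was at 11.21 ± 0.12 at P4 and 11.14 ± 0.14 at P2, and Otx2, which starts the photoreceptor fate, at 12.42 ± 0.04 at P4 and 12.50 ± 0.07 at P2. Nr2e3, Pcna and Ccnb1 were not analysed here. The array medians lay between 6.93 and 7.03, and the correlation of each of the 7 arrays with its age group's remaining arrays, averaged, was 0.985 to 0.991. Of 14860 genes, 12 passed the test (0.0808%), at a Benjamini-Hochberg adjusted p under 0.05 in limma, and all 12 were lower at P4. At an unadjusted p under 0.05 there were 621 lower genes (4.18%) and 306 higher genes (2.06%). The median change over all genes was -0.01 (log2, P4 minus P2).

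Of the 12 genes that fell by P4, 5 build or monitor the mitotic spindle, among them Tpx2, which had the largest change. Tpx2, which nucleates spindle microtubules and activates the kinase Aurora A, fell by 1.61 ± 0.23 (log2 change, SE) in P4 rods, and Bub1, a kinase of the spindle checkpoint, fell by 1.28 ± 0.17. Cdca8, or borealin, a subunit of the chromosomal passenger complex, fell by 0.96 ± 0.17. Dlgap5, which stabilises spindle microtubules, fell by 0.80 ± 0.15, and Aspm, a spindle pole protein needed for divisions of neural progenitors, fell by 0.76 ± 0.14. All 5 belong to a list of 44 kinetochore, spindle and checkpoint genes of which 36 were measured. Adjusted p was 0.00117 for Tpx2, 0.000568 for Bub1, 0.0135 for Cdca8 and 0.0181 for both Dlgap5 and Aspm.

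Tpx2 stood at 7.10, 6.39, 7.01 and 7.04 in the 4 P4 arrays, against 8.44, 8.96 and 8.08 in the 3 P2 arrays. Bub1 stood at 5.12, 4.84, 5.11 and 4.95 in the P4 arrays, against 5.83, 6.65 and 6.38 in the P2 arrays. For both genes every P4 array was below every P2 array, and P4 replicate 2 had the lowest Tpx2 level of the 7. Cdca8 had levels of 6.85, 6.63, 7.11 and 6.21 at P4 and of 7.49, 7.98 and 7.51 at P2. Dlgap5 had levels of 5.47, 5.27, 5.67 and 5.67 at P4 and of 6.16, 6.87 and 5.93 at P2. Their groups did not overlap either, and P2 replicate 2 was the highest array for Tpx2, Bub1, Cdca8 and Dlgap5. Aspm was the exception among the 12 genes, since its P4 levels of 6.41, 5.74, 6.10 and 5.94 overlapped its P2 levels of 6.92, 7.13 and 6.38. At 2-fold or more 4 genes passed (0.0269%), Tpx2, Bub1, Mgst1 and the uncharacterised 2610318N02Rik. Sorted cells were measured in bulk, so fewer dividing cells and less RNA per cell cannot be told apart.

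**Figure D1:**
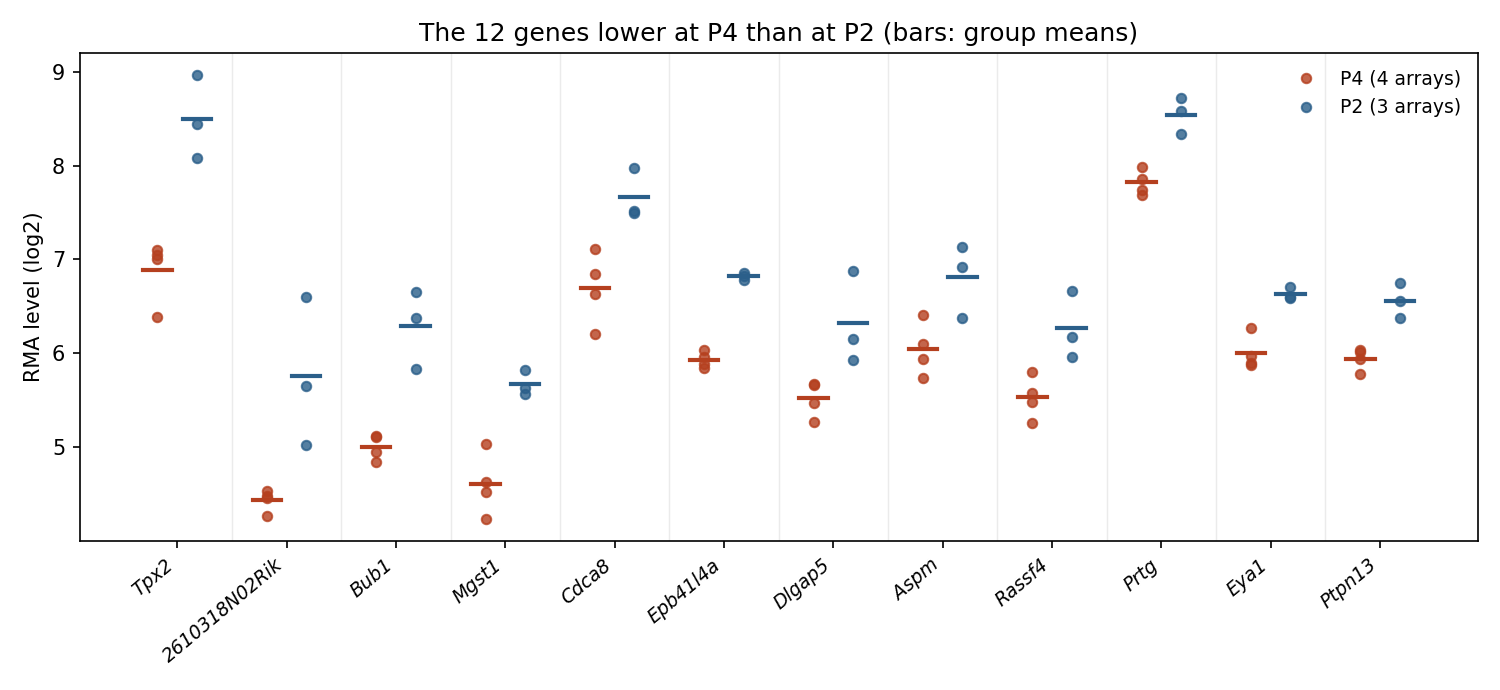
RMA levels (log2, vertical axis) of the 12 genes that passed the test, with 1 point per array, the 4 P4 arrays left of the 3 P2 arrays for each gene, and a bar at each group's mean. All 12 were lower at P4, and the groups overlapped for Aspm alone.

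The calls rested on the spread estimated over all 28 arrays. With the 7 arrays of P4 and P2 alone 0 genes passed in limma (lowest adjusted p 0.0912, for Epb41l4a), although each of the 12 genes kept an unadjusted p of 0.006 or lower there, and 10 of the 12 varied more within P4 and P2 than within the arrays of P10 to P28. Without P2 replicate 2 or without P4 replicate 4 the count was 5, without P2 replicate 1 it was 7, and without P2 replicate 3 it was 30 (28 lower and 2 higher). Without P6 replicate 1, the array least like its age group, it was 22, an alternative chosen after seeing the data.

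Promoters of the spindle genes are shown because many genes of G2 and mitosis carry a cell cycle homology region (CHR, TTTGAA), a short element near the start site through which they are repressed in resting cells, together with CCAAT boxes. RefSeq promoters of build GRCm38.p6 were at hand for Bub1, Cdca8 and Aspm, each from 250 bases before to 50 bases after the annotated start, and capitals mark CHR and CCAAT letters on either strand. Bub1 lies at chr2:127831810-127832109 on the minus strand, Cdca8 at chr4:124936868-124937167 on the minus strand, and Aspm at chr1:139454523-139454822 on the plus strand.
Bub1: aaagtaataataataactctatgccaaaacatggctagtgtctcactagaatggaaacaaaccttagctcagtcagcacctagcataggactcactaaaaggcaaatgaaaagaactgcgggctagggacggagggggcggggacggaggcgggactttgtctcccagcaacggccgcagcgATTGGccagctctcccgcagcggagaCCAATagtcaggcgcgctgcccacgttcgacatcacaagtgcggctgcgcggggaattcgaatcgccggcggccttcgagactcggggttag
Cdca8: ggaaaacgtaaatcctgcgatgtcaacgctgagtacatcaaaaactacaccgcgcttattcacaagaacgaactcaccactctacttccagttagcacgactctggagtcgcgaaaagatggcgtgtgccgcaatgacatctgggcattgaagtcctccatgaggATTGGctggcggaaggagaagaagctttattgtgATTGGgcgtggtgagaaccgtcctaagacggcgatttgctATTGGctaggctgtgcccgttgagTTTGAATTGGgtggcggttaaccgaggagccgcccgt
Aspm: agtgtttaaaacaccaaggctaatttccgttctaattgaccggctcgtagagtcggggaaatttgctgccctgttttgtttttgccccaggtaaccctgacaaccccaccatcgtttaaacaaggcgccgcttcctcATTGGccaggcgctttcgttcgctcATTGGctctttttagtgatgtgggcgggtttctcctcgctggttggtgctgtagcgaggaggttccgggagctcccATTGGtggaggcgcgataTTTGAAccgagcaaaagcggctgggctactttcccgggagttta

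The CHR letters stood from base 14 to base 19 after the start in Cdca8 and from base 7 to base 12 in Aspm, on the gene's own strand in both. In Cdca8 they shared a base with a CCAAT match on the other strand, at bases 19 to 23. Bub1 held 2 CCAAT matches, at bases -68 to -64 and -42 to -38, and no TTTGAA in this window. Only the letters TTTGAA were counted as CHR, here and in the shares that follow. Variants were not searched, such as TTCGAA, which the printed Bub1 sequence holds after the start. Whether Bub1 carries a variant of the element was therefore not tested. Over the promoters of the genes on the array (14927 promoters of 11894 genes) CHR was found in 14.3% and CCAAT in 37.6%, and over all 32851 promoters of the table in 17.9% and 37.4%. Of 82 promoters of the mitosis lists described below, 56.1% held CHR and 61.0% held CCAAT. Of 58 promoters of the G1 and S lists, 17.2% held CHR and 55.2% held CCAAT. Sites of the E2F family, which switches on genes of the G1 to S border, were searched on both strands as the letters TTGGCGC, then as the letters TTCCCGC, and then as the letters TTCGCGC. At least 1 of these 3 was found in 24.4% of the mitosis promoters, in 56.9% of the G1 and S promoters, in 11.5% of the promoters of genes on the array and in 8.1% of all promoters of the table. A match is a description of the letters and not a bound site.

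Around the genes that passed, nearly the whole kinetochore, spindle and checkpoint list was lower at P4. Of its 36 measured genes 35 had a negative change, the median change was -0.71 (log2) against -0.01 over all genes, and 15 had every P4 array below every P2 array, where 5.03% of all genes did. The other 31 members did not pass, and their changes lay between -1.45 (Cenpk) and 0.27 (Zwilch). Of these 31 genes 11 were lower at P4 without overlap and 20 overlapped, and Cenpk and Cenpe had the largest changes among them. Cenpk, a subunit of the inner kinetochore, had levels of 6.52, 5.53, 7.30 and 6.51 at P4 and of 7.61, 8.65 and 7.50 at P2, with a change of -1.45 ± 0.31 (SE). Cenpe, the motor protein that brings chromosomes to the spindle equator, had levels of 7.49, 6.90, 7.43 and 6.89 at P4 and of 8.30, 8.80 and 7.94 at P2, a change of -1.17 ± 0.26. In both the P4 arrays lay below the P2 arrays, and the gap between the nearest arrays of the groups was smaller than the range from lowest to highest array within each age. The kinetochore gene Cenph was at -1.07, the kinesins Kif15 and Kif4 were at -0.95 and -0.87, Nuf2 and Spc24 of the Ndc80 complex at -0.82 and -0.80, and the checkpoint kinase Ttk at -0.81. Cenpk, Cenpe, Zwilch and these 6 genes were named after their values were seen. P2 replicate 2 lay farthest from the P4 arrays, since its median over the 36 genes was 0.41 above the P2 means, the other P2 arrays lay at -0.19 and -0.33, and the P4 arrays lay between -0.84 and -0.46. Without P2 replicate 2 the list's median change was -0.39.

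Genes of G2 and mitotic entry were lower at P4 in 19 of 20 cases, with a median change of -0.47, and 0 of them passed the test. Mki67, a protein of the chromosome surface in dividing cells, had levels of 9.62, 9.08, 10.04 and 9.35 at P4 and of 10.26, 10.92 and 10.30 at P2, a change of -0.97 ± 0.35 (adjusted p = 0.556). Its groups did not overlap. Top2a, the topoisomerase that untangles chromosomes, had levels of 8.29, 7.44, 8.55 and 7.52 at P4 and of 8.76, 9.96 and 8.55 at P2, and its change of -1.14 ± 0.44 had the largest size in the list. Hmmr, which organises the spindle, was at -1.01 ± 0.28 and the mitotic kinase Mastl at -0.90 ± 0.26, with overlap of the groups in both. Cyclin A2 (Ccna2) had levels of 8.16, 7.66, 7.96 and 7.43 at P4 and of 8.22, 8.99 and 8.30 at P2. Its partner kinase Cdk1 had levels of 6.85, 6.61, 6.93 and 6.87 at P4 and of 7.14, 7.94 and 6.95 at P2. Both pairs of groups were apart by a margin under 0.1, and the changes of -0.70 ± 0.24 and -0.53 ± 0.20 did not pass. Wee1, the kinase that holds Cdk1 back, was at -0.46 ± 0.14. Without P2 replicate 2 the median of this list was -0.26.

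The remaining mitosis lists were lower at P4 too, with 0 genes that passed. Of 16 genes of chromosome condensation and cohesion 15 were lower at P4, with a median of -0.19, and 5 had no overlap, where 5.03% of all genes were lower without overlap. The median was -0.09 after quantile normalization and -0.11 after cyclic loess. Smc4, a core subunit of condensin, had levels of 9.18, 8.89, 9.37 and 9.01 at P4 and of 9.51, 9.92 and 9.61 at P2, and its change of -0.57 ± 0.13 missed the threshold (adjusted p = 0.0983). Smc2, its partner, was at -0.69 ± 0.24 and the condensin subunit Ncapd2 at -0.50 ± 0.15. Of 18 genes of anaphase and cytokinesis 16 were lower at P4, with a median of -0.26, and 5 had no overlap. Kif23, a kinesin of the central spindle, had levels of 6.41, 6.10, 6.29 and 5.99 at P4 and of 7.16, 7.77 and 6.74 at P2 (change -1.02 ± 0.24, adjusted p = 0.133). Ect2, which places the cleavage furrow, had levels of 6.99, 6.36, 6.68 and 6.45 at P4 and of 7.25, 7.79 and 7.04 at P2 (change -0.74 ± 0.18). For both genes all P4 arrays were lower than all P2 arrays. The median of the cytokinesis list was -0.15 without P2 replicate 2, -0.41 without P2 replicate 3 and -0.14 among genes with a mean level of at least 7. Over the 4 mitosis lists together, 85 of 90 measured genes were lower at P4, 29 (32.2%) had no overlap, against 5.03% of all genes, and 0 had every P4 array above every P2 array.

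Over all measured members, the lists for the earlier part of the cycle had medians nearer 0. Of 26 genes of G1 to S commitment and licensing 22 were lower at P4, with a median change of -0.12, and of 34 genes of DNA replication and nucleotide supply 23 were lower, with a median of -0.14. None of the 60 passed the test, and 5 (8.33%) had no overlap, all lower at P4, a share near the 5.03% of all genes. Cyclin D1 (Ccnd1), which drives progenitors through G1, had levels of 8.68, 8.07, 8.65 and 8.14 at P4 and of 9.02, 9.54 and 8.85 at P2, a change of -0.75 ± 0.22 (adjusted p = 0.313). Among subunits of the replicative helicase the changes were -0.67 ± 0.17 for Mcm6, -0.53 ± 0.14 for Mcm3 and -0.16 ± 0.09 for Mcm2, while Mcm7, named after its value was seen, was at 0.38. Pola2, a subunit of the primase complex, was at -0.43 ± 0.14, Clspn, a fork protein, at -0.43 ± 0.15, and the polymerase subunit Pole2 at -0.47 ± 0.18. The groups overlapped for Pola2, Clspn and Pole2. Without P2 replicate 2 the medians of the G1 to S list and the replication list were -0.09 and -0.05, and without P2 replicate 1 they were -0.19 and -0.21. Among genes with a mean level of at least 7 over the 28 arrays the order of the lists turned, with -0.34 for G1 to S and -0.27 for the kinetochore list. That mean covers the later ages, so the filter drops genes that are bright only early. The kinetochore list's median level was 7.43 at P2 and 5.45 at P10, and that of the G1 to S list was 6.80 and 6.31. Tpx2, at 8.49 at P2, was dropped with a mean of 5.75. The turned order therefore cannot tell brightness at P2 and P4 from the later fall. The difference in median between the mitosis lists and the G1 and S lists was not tested.

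**Figure D2:**
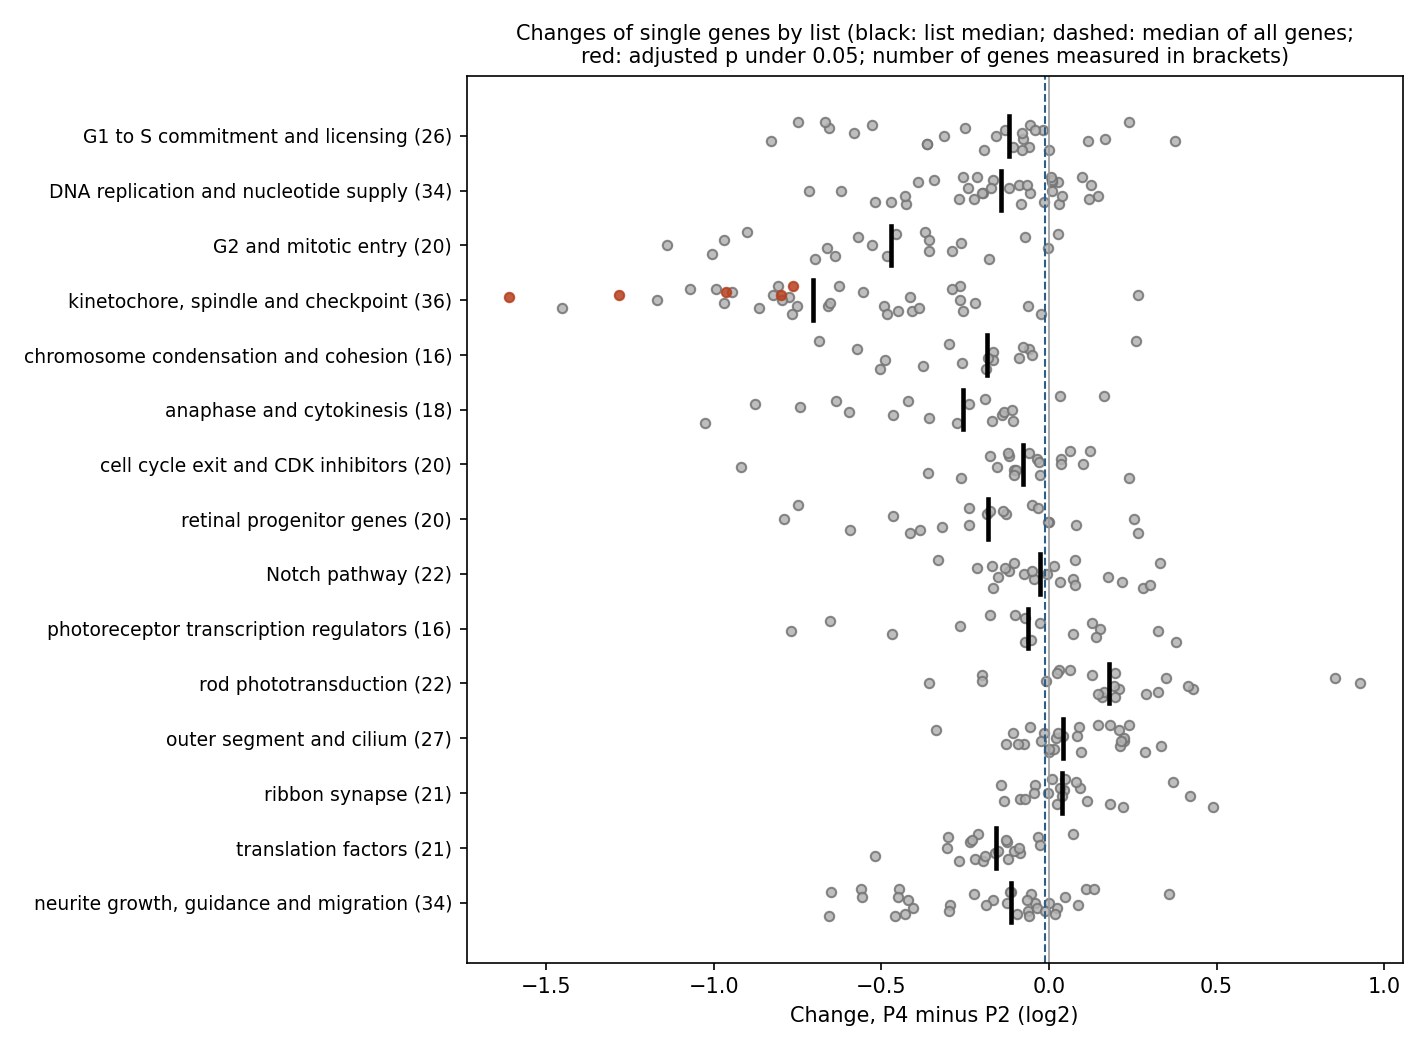
Change of each measured gene (log2, P4 minus P2, horizontal axis) in 15 gene lists, with a black bar at the list's median, a dashed line at the median of all genes (-0.01) and the genes that passed the test in red. The kinetochore list lies farthest to the left, with a median of -0.71 and all 5 red points, and phototransduction is the list shown farthest to the right, with a median of 0.18.

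The mitosis genes stood lower at each age up to P10. The median level of the 90 mitosis genes was 7.06, 7.00, 7.17 and 6.88 in the P4 arrays and 7.51, 7.96 and 7.32 in the P2 arrays, with no overlap. For the 60 genes of G1 and S the medians were 6.94, 6.93, 6.94 and 6.94 at P4 and 6.94, 7.30 and 6.91 at P2, with overlap. Taken from the age means, the mitosis median ran through 7.55 at P2, 7.05 at P4, 6.62 at P6 and 6.17 at P10, and it stayed between 6.17 and 6.33 thereafter. Tpx2 had means of 8.49 at P2, 6.88 at P4, 5.87 at P6 and 4.93 at P10, and Bub1 had means of 6.29, 5.00, 4.29 and 3.80 at these ages. For P6 against P4, an interval that shares the P4 arrays, 79 genes passed as lower (0.532%) and 272 as higher (1.83%). Tpx2 fell by a further 1.01 ± 0.21, Bub1 by 0.71 ± 0.16, Cdca8 by 0.58 ± 0.15, Dlgap5 by 0.75 ± 0.13 and Aspm by 0.86 ± 0.13. In the 4 mitosis lists 12 genes passed as lower in that interval and 0 as higher. Mki67 had means of 10.49 at P2, 9.52 at P4, 8.25 at P6 and 4.53 at P10. Of the 12 genes that fell between P2 and P4, 8 had a lower mean at each later age than at P4.

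**Figure D3:**
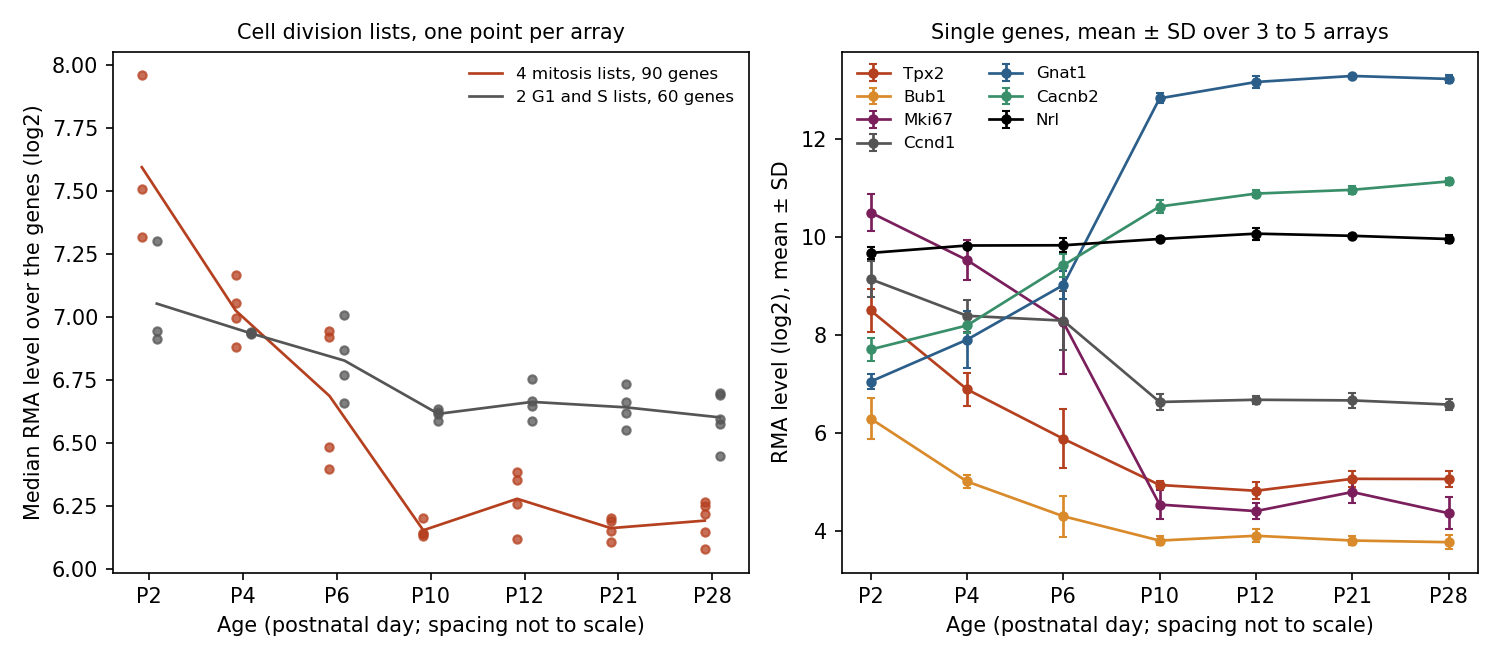
Left, median RMA level (log2) of the 90 genes of the mitosis lists and the 60 genes of the G1 and S lists in each of the 28 arrays, by age, with lines through the means of the arrays. Right, mean ± SD (3 to 5 arrays) of single genes by age: the mitosis medians of the P4 arrays (6.88 to 7.17) lie below those of the P2 arrays (7.32 to 7.96), while the means of Nrl stay between 9.67 and 10.06.

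The remaining 7 genes that fell were in none of the cell division lists. Mgst1, a membrane-bound glutathione transferase that detoxifies oxidised lipids, had levels of 4.63, 4.24, 4.53 and 5.03 at P4 and of 5.82, 5.57 and 5.63 at P2, 2.09-fold lower at P4 (SE of the log2 change 0.14, adjusted p = 0.000568). Its mean was 4.43 at P6 and between 4.25 and 4.44 at the later ages. Eya1, a co-activator and phosphatase that acts in eye development, had levels of 5.88, 6.27, 5.89 and 5.97 at P4 and of 6.60, 6.59 and 6.71 at P2 (change -0.63 ± 0.10, adjusted p = 0.00430). Prtg, protogenin, an immunoglobulin family receptor of the embryonic neural tube, had levels of 7.74, 7.86, 7.99 and 7.69 at P4 and of 8.58, 8.72 and 8.34 at P2 (change -0.72 ± 0.14, adjusted p = 0.0404). The call of Prtg was lost in 13 of its 20 alternatives, quantile normalization and cyclic loess among them. Neither Eya1 nor Prtg overlapped between the ages. Epb41l4a, of the band 4.1 family of membrane skeleton proteins, had levels of 5.96, 5.85, 6.04 and 5.89 at P4 and of 6.86, 6.79 and 6.82 at P2, the narrowest spread of the 12 genes. The tyrosine phosphatase Ptpn13 fell by 0.62 ± 0.11, and Rassf4, a protein with a Ras association domain, fell by 0.74 ± 0.15. The uncharacterised 2610318N02Rik stood at 4.48, 4.54, 4.26 and 4.46 at P4, against 6.60, 5.66 and 5.02 at P2. The mean over the 28 arrays was under 6 for 10 of the 12 genes, and among genes with such a mean of at least 6 the count that passed was 1, Cdca8. That mean includes the later ages and is not the level at P2 or P4. Tpx2 had a mean of 8.49 at P2 and 6.88 at P4 but of 5.75 over the 28 arrays. Aspm had means of 6.81 and 6.05 at these ages but of 5.31 over the 28 arrays. Mgst1 stood at 5.82 or lower in all P4 and P2 arrays.

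No gene that holds cells out of the cycle passed the test. Of 20 CDK inhibitors and cell cycle exit genes 14 were lower at P4, with a median of -0.08. Cdkn1b (p27Kip1), the CDK inhibitor that accompanies exit in many retinal cells, had levels of 10.22, 9.64, 9.58 and 9.57 at P4 and of 10.03, 10.07 and 9.69 at P2, a change of -0.18 ± 0.20. Cdkn1c (p57Kip2) had levels of 7.42, 7.39, 7.44 and 7.48 at P4 and of 7.42, 7.52 and 7.43 at P2. The antiproliferative gene Btg2 was at -0.10 ± 0.31. For Cdkn1b, Cdkn1c and Btg2 the groups overlapped. In the whole list 1 of 20 genes (5%) was lower without overlap, against 5.03% of all genes. Among 18 genes of DNA damage response and repair 16 were lower at P4, with a median of -0.14 and no gene without overlap. Their lowest p belonged to Xrcc1, a scaffold of single-strand break repair, at -0.30 ± 0.10, and Fanci was at -0.26 ± 0.09.

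Progenitor genes were lower at P4 in 17 of 20 cases, with a median of -0.18, and 0 passed. Zfp36l1, which binds RNA for decay, had levels of 8.69, 8.57, 8.68 and 8.26 at P4 and of 9.30, 9.65 and 9.07 at P2, a change of -0.79 ± 0.39 without overlap. Pax6, which keeps progenitors multipotent and persists in amacrine cells, had levels of 8.21, 8.11, 8.64 and 8.17 at P4 and of 8.43, 9.13 and 8.67 at P2, a change of -0.46 ± 0.31. Fabp7, which binds fatty acids in progenitors and glia, stood at 12.65 to 12.91 at P4 and 12.97 to 12.99 at P2 (change -0.19 ± 0.43). The SE rests on the spread over all 28 arrays, so it is large for a gene that varies at later ages. The SD of Fabp7 was 0.13 at P4 and 0.007 at P2, but 1.18 at P21. In the Notch pathway, through which neighbouring cells hold each other in the progenitor state, 12 of 22 genes were lower and 10 higher, with a median of -0.03. Its ligands Dll1 (-0.33 ± 0.15) and Dll4 (-0.22 ± 0.09) were lower. The ligands Jag1 (0.33 ± 0.17), Dll3 (0.07 ± 0.08) and Jag2 (0.03 ± 0.08), named after their values were seen, were higher. The target Hes1 (0.28 ± 0.11) and Hes5 (0.18 ± 0.10) were higher too, and 0 genes of the list passed. Dll4 was lower and Hes5 was higher without overlap. Hes1 had levels of 6.97, 7.35, 7.49 and 6.99 at P4 and of 6.78, 7.09 and 6.89 at P2. The receptor gene Notch1 was at -0.17 ± 0.17. Of 21 neurogenic and postmitotic precursor genes 13 were lower, with a median of -0.05, and Onecut1, a factor of horizontal cell and early fates, had the lowest p (7.84, 8.03, 7.68 and 7.74 at P4, against 8.16, 8.64 and 8.11 at P2, change -0.48 ± 0.12, adjusted p = 0.173). Neurod1, which promotes photoreceptor differentiation, was at -0.05 ± 0.13.

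No gene of the rod program passed the test, but most of the phototransduction list had positive changes. Of 22 measured phototransduction genes 18 had a positive change, with a median of 0.18 against -0.01 over all genes, and 1 gene, Pde6b, had every P4 array above every P2 array, where 2.57% of all genes did. Gnat1, the alpha subunit of rod transducin, had levels of 8.25, 7.02, 8.19 and 8.12 at P4 and of 6.86, 7.11 and 7.16 at P2, a change of 0.85 ± 0.19 (adjusted p = 0.0993). In this gene 3 of the P4 arrays were above all P2 arrays, while P4 replicate 2 lay within them. Pde6b, the catalytic beta subunit of rod phosphodiesterase, had levels of 11.26, 11.07, 11.01 and 11.34 at P4 and of 10.98, 10.64 and 10.84 at P2, a change of 0.35 ± 0.09 (adjusted p = 0.228). Rgs9bp, which anchors the protein that ends the transducin signal, had levels of 7.63, 7.56, 6.35 and 6.99 at P4 and of 5.66, 6.37 and 6.59 at P2, a change of 0.93 ± 0.28. Pde6a was at 0.43 and Pde6g at 0.41, while the guanylate cyclase activator Guca1a was at -0.36, and these 3 genes were named after their values were seen. In the following interval, P6 against P4, 15 of these 22 genes passed the test as higher, against 1.83% of all genes, among them Gnat1 by 1.11 and Pde6b by 0.51. Rgs9bp did not rise further and was at -0.18 in that interval. Relative to the P2 means the list's median was 0.31, 0.24, 0.04 and 0.16 in the P4 arrays and 0.08, -0.08 and 0.04 in the P2 arrays, so P4 replicate 3 lay within the P2 arrays. With replicate 2 of P4 left out the list's median was 0.15, and with replicate 2 of P2 left out it was 0.12.

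Among 27 outer segment and cilium genes 19 were higher at P4 with a median of 0.04, and 0 passed. Prph2, the disc rim protein peripherin, had levels of 10.74, 10.76, 10.62 and 10.52 at P4 and of 10.38, 10.17 and 10.43 at P2 (change 0.33 ± 0.09, adjusted p = 0.243), without overlap. Rp1, a microtubule protein of the connecting cilium, was at 0.24 ± 0.09, and Kif3a, a motor of ciliary transport, was at -0.34 ± 0.12. In the ribbon synapse list 14 of 21 genes were higher, with a median of 0.04, and 3 genes (Cacnb2, Cplx4 and Elfn1) were higher without overlap, where 2.57% of all genes were. Cacnb2, a calcium channel subunit of the rod terminal, had levels of 8.01, 8.12, 8.28 and 8.34 at P4 and of 7.65, 7.50 and 7.95 at P2 (change 0.49 ± 0.12, adjusted p = 0.146). Cplx4, a complexin of ribbon synapses, had levels of 9.30, 9.54, 9.51 and 9.71 at P4 and of 9.14, 8.95 and 9.18 at P2 (change 0.42 ± 0.11). Elfn1, an adhesion protein that links rods to bipolar cells, was at 0.37 ± 0.12. In the interval from P4 to P6 Cacnb2 rose by 1.23 and Cplx4 by 1.22. The retinoid cycle genes Rdh12 (0.41 ± 0.20) and Abca4 (0.20 ± 0.14) did not pass, and 8 of 10 genes of that list had a negative change.

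No regulator of the photoreceptor fate passed the test, with 10 of 16 lower at P4, and a median of -0.06. Nrl had levels of 9.87, 9.82, 9.80 and 9.79 at P4 and of 9.76, 9.54 and 9.71 at P2, a change of 0.15 ± 0.08 (adjusted p = 0.826) with the P4 arrays above the P2 arrays. Crx was at 0.07 ± 0.11 and Otx2 at -0.07 ± 0.09. Prdm1, which blocks the bipolar fate in young photoreceptors, had levels of 11.06, 10.84, 10.85 and 10.84 at P4 and of 11.14, 11.28 and 11.07 at P2 (change -0.27 ± 0.12). Samd7, a Polycomb-associated protein of photoreceptors, had levels of 10.95, 11.02, 11.10 and 11.13 at P4 and of 10.74, 10.45 and 10.82 at P2 (change 0.38 ± 0.14). Mef2d, a factor that works with Crx, was at -0.65 ± 0.20 with levels of 8.30, 8.33, 8.82 and 8.87 at P4 and of 9.36, 9.37 and 8.97 at P2. These 3 genes had no overlap. In the whole list 4 of 16 genes (25%) were lower without overlap, against 5.03% of all genes, namely Mef2d, Rxrg, Prdm1 and Rorb. The list also held 2 genes (12.5%) that were higher without overlap, Nrl and Samd7, against 2.57% of all genes. Thrb, the thyroid hormone receptor of the cone fate, was at -0.77 ± 0.26.

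**Figure D4:**
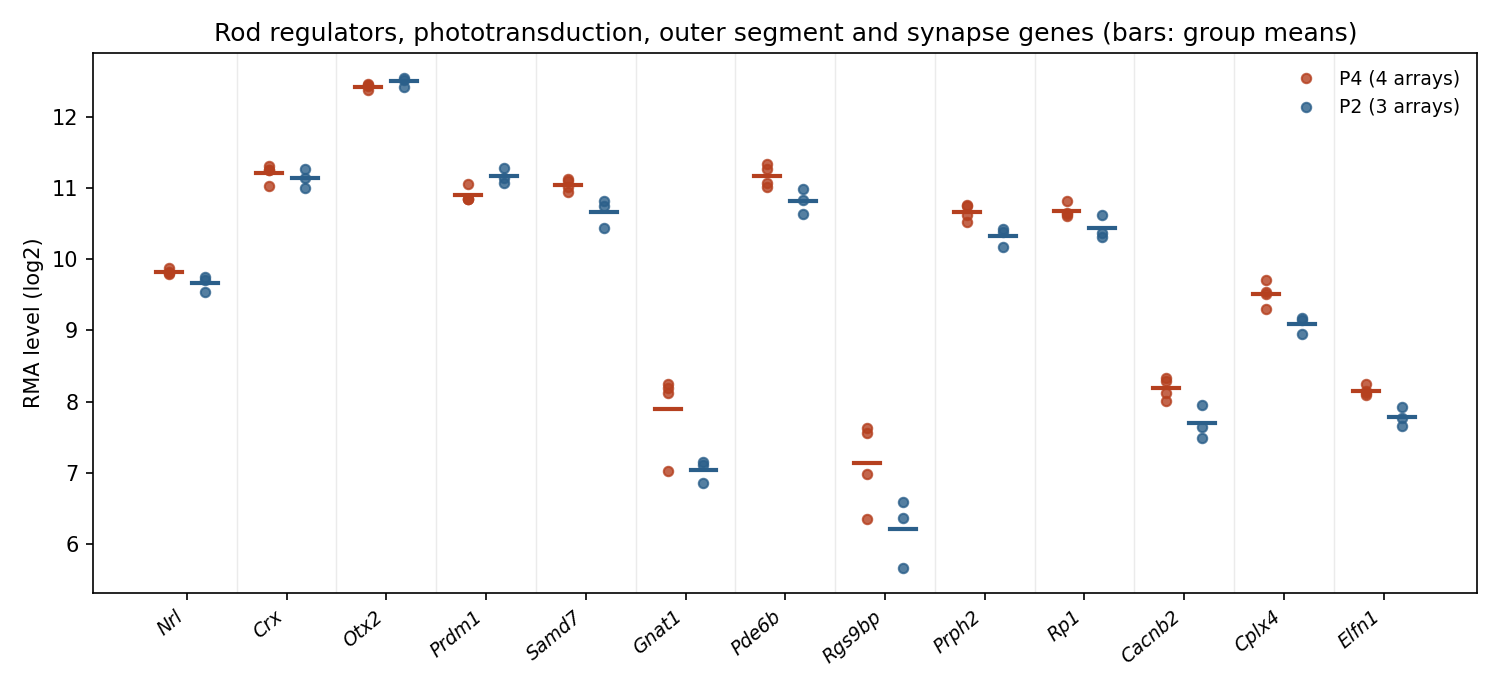
RMA levels (log2, vertical axis) of 13 rod genes, with 1 point per array, the 4 P4 arrays left of the 3 P2 arrays, and a bar at each group's mean. Gnat1 and Rgs9bp show the widest gap between the means (0.85 and 0.93) together with a P4 array at P2 levels, while Nrl, Crx and Otx2 differ by 0.15 or less.

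No gene passed as higher at P4. The rule names 10 genes, those with the smallest p among the genes whose P4 arrays all lay above their P2 arrays. The largest difference of the 10 was that of Pcgf1, a Polycomb group protein, with levels of 9.35, 10.02, 8.90 and 8.75 at P4 and of 7.44, 7.98 and 8.10 at P2 (change 1.42 ± 0.35, adjusted p = 0.173). Abca1, the cholesterol exporter, had levels of 7.85, 7.98, 8.28 and 8.52 at P4 and of 7.48, 7.30 and 7.57 at P2 (change 0.71 ± 0.17, adjusted p = 0.168). Nrxn3, a presynaptic adhesion protein, was at 0.58 ± 0.15, and Cpt1a, which takes fatty acids into mitochondria, at 0.46 ± 0.12. Cpt1a had levels of 8.91, 9.07, 9.04 and 8.92 at P4 and of 8.51, 8.50 and 8.57 at P2. The lipid kinase Dgke was at 0.35 ± 0.09 and Cfap100 at 0.30 ± 0.08. Cacnb2, Pde6b, Cplx4 and Prph2 complete the 10 genes.

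Lists outside the cell cycle and the rod program held 0 genes that passed, and many had more genes lower than higher at P4. Of 21 translation factors 20 were lower at P4 with a median of -0.16, and 7 (33.3%) had no overlap, against 5.03% of all genes, among them Eif5b (-0.30 ± 0.14) and Eif1a (-0.27 ± 0.13), which act in initiation. Of 34 genes of neurite growth, guidance and migration 27 were lower with a median of -0.11, and 8 were lower without overlap, against the same 5.03%. The netrin receptor Dcc had levels of 7.81, 7.95, 8.09 and 8.08 at P4 and of 8.41, 8.48 and 8.43 at P2 (change -0.46 ± 0.14), and the guidance receptors Epha4 (-0.40 ± 0.12) and Epha3 (-0.56 ± 0.20) had no overlap either. Of 18 cholesterol synthesis genes 16 were lower with a median of -0.25, and 1 had no overlap, a share near that of all genes. That gene, Insig1, which holds the sterol sensor in the endoplasmic reticulum, had levels of 8.34, 8.16, 8.19 and 8.18 at P4 and of 8.97, 8.69 and 8.45 at P2 (change -0.49 ± 0.11, adjusted p = 0.116), and Sqle and Cyp51 were at -0.57 ± 0.20 and -0.44 ± 0.14. Relative to the P2 means the median of the cholesterol list was -0.07, -0.07, -0.36 and -0.47 in the P4 arrays and 0.09, 0.07 and -0.20 in the P2 arrays. P2 replicate 3 thus lay below P4 replicates 1 and 2. The desaturase Fads1 was at -0.64 ± 0.14 (adjusted p = 0.0983). Of 30 chromatin genes 23 were lower with a median of -0.09. Ezh2, the histone methyltransferase of Polycomb complex PRC2, had levels of 10.44, 10.48, 10.26 and 10.34 at P4 and of 10.65, 10.87 and 10.70 at P2 (change -0.36 ± 0.09, adjusted p = 0.210). The remodeller Chd7 was at -0.34 ± 0.10, and both were without overlap. Lower at P4 were also 22 of 26 proteasome genes (median -0.10), 20 of 23 chaperones (-0.12), 27 of 33 splicing factors (-0.07), 20 of 26 genes of ribosome biogenesis (-0.10) and 12 of 15 ribosomal proteins (-0.13). Medians of the oxidative phosphorylation (-0.02), tricarboxylic acid cycle (-0.05), glycolysis (0.02), cell death (-0.04), immediate early (-0.03) and hypoxia (-0.05) lists were within 0.05 of that of all genes. The genes brighter than 9 on average had a median change of -0.08 and those dimmer than 5 one of 0.04.

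Genes that changed later were followed back to this first interval, using contrasts that share no array with it. Of 434 genes that passed the test and were at least 2-fold lower at P10 than at P6, 352 (81.1%) had a negative change between P4 and P2, against 53.0% of all genes, with a median of -0.23, and 67 (15.4%) had every P4 array below every P2 array, against 5.03% of all genes. Of 131 genes that passed and were at least 2-fold higher at P10 than at P6, 80 (61.1%) had a positive change between P4 and P2, against 47.0% of all genes, with a median of 0.04, and 6 (4.58%) had every P4 array above every P2 array, against 2.57%. With P28 in place of P10, 779 of 1040 such lower genes (74.9%) were below 0 in P4 against P2, and 151 of 252 higher genes (59.9%) were above 0. Of the genes that passed between P4 and P2, 0 were among the 434 and 1 was among the 1040. How many of the later lower genes belong to the cell division lists was not counted, so the counts may share genes with those lists.

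The change after P4 differed from the change before it for 25 genes by a test of the difference of the intervals, 24 upward (0.162%) and 1 downward (0.00673%). The P4 arrays enter both intervals with opposite sign, so a P4 level that is low by chance raises this difference. Prox1, a factor of horizontal and other interneurons that also drives cell cycle exit, had levels of 8.03, 6.32, 7.24 and 7.36 at P4 and of 8.46, 8.15 and 7.86 at P2 (change -0.92 ± 0.35, not passing), and it rose by 1.85 between P4 and P6. The difference of its intervals was 2.77 (adjusted p = 0.0395). None of the 90 mitosis genes was among the 25. Without P4 replicate 1 the count was 9, without P4 replicate 2 it was 16 and without P4 replicate 3 it was 10.

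For 3 marker lists the summed level was lower in every P4 array than in any P2 array. Summed over a list's genes on the linear scale, progenitor genes (20 of 23 measured) gave 11324 to 12675 in the P4 arrays and 13128 to 14999 in the P2 arrays, without overlap. Bright genes carry such sums, and Fabp7 alone made up 55.1 to 63.6% of the progenitor sum at P4 and 53.9 to 61.9% at P2. Amacrine genes (13 of 15) gave 3908 to 4807 at P4 and 4829 to 5446 at P2, and horizontal cell genes (8 of 10) gave 1082 to 1209 at P4 and 1248 to 1500 at P2, also without overlap. The median of the horizontal cell genes relative to the P2 means was 0.18 in P4 replicate 2, above the P2 arrays (-0.02 to 0.05), and -0.29 to -0.13 in the other P4 arrays. In the amacrine list Gad2, an enzyme of GABA synthesis, had levels of 6.85, 6.69, 7.08 and 6.90 at P4 and of 7.86, 8.30 and 7.51 at P2 (change -1.01 ± 0.28, adjusted p = 0.272), while its relative Gad1, named after its value was seen, was at -0.0019. Cone genes (15 of 16) gave 6695 to 9091 at P4 and 8978 to 9899 at P2, and Müller glia genes (15 of 15) gave 8794 to 11473 at P4 and 10868 to 13397 at P2, both with overlap. Bipolar, ganglion cell, astrocyte, microglia, vessel, pigment epithelium and lens lists overlapped as well. Rod phototransduction genes (22 of 24) gave 22694 to 25068 at P4 and 20090 to 23027 at P2. No list of other cells held a gene that passed. P2 replicate 2, the array with the highest mitosis median, also had the highest sums for progenitor, horizontal, amacrine and Müller glia genes and the lowest for rod phototransduction genes. The part of these cells in the falls of the mitosis genes was not tested.

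**Figure D5:**
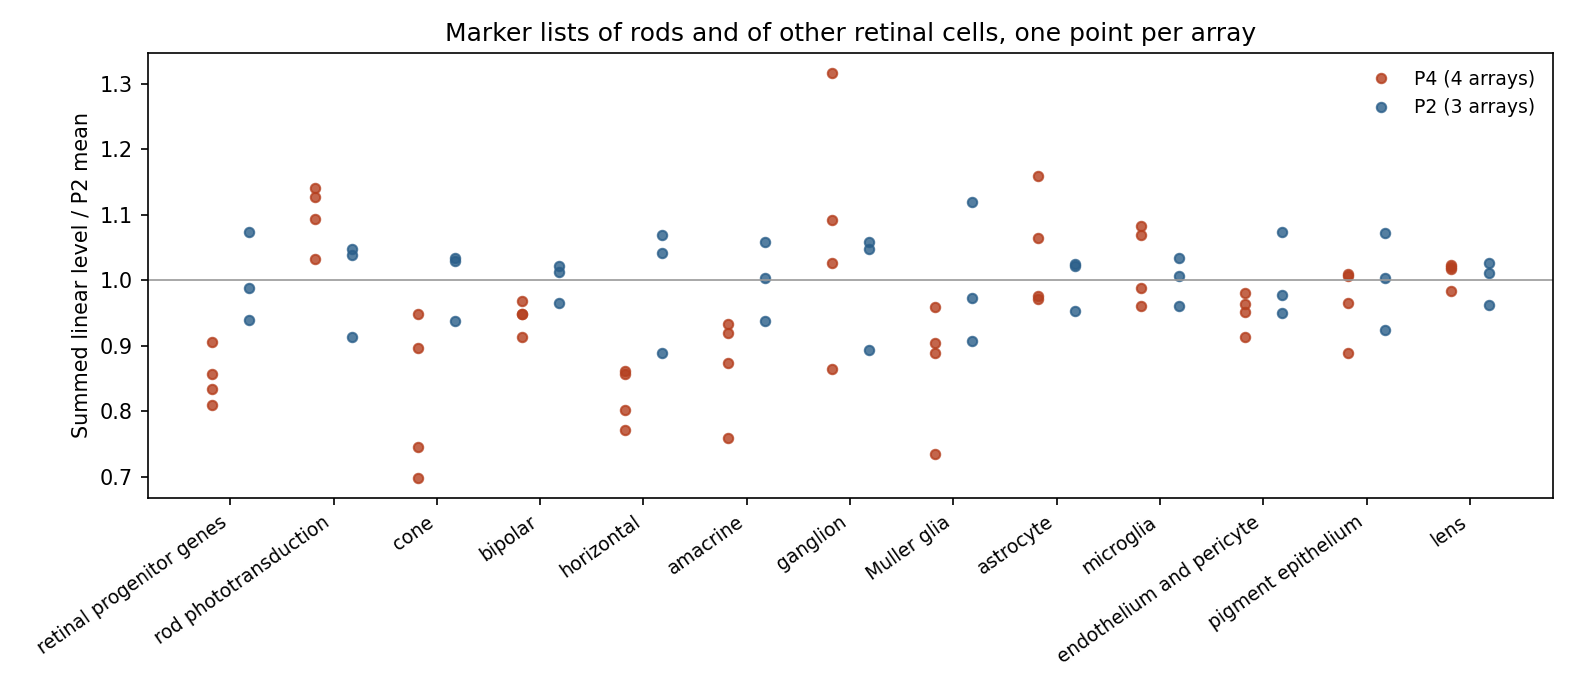
Summed linear level of each marker list divided by the mean of the P2 arrays (vertical axis), with 1 point per array and the 4 P4 arrays left of the 3 P2 arrays. The progenitor, horizontal and amacrine lists lie lower at P4 without overlap, with mean ratios of 0.852, 0.823 and 0.871, and the rod phototransduction list has a mean ratio of 1.10.

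The 7 arrays also differed in sex-linked signal. The Y-linked genes Eif2s3y and Kdm5d stood at 9.68 and 7.82 in P4 replicate 3 and at 9.34 and 7.97 in P2 replicate 2, and at 3.76 to 4.22 and 4.67 to 4.99 in the other 5 arrays, so the ages held 1 such array each. With those arrays left out 2 genes passed, Bub1 and Mgst1, and the kinetochore list's median was -0.48. This alternative was chosen after seeing the data.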

How the data were processed

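The 28 arrays were Affymetrix Mouse Exon 1.0 ST arrays of sorted rods. The deposited table holds log2 values, 1 per transcript cluster, that the authors made with the RMA method in Affymetrix Expression Console (1.3.1.187) at the core gene level on build mm8, per the submitters' processing notes. Of 16755 clusters, 14996 had 1 gene symbol, 1019 several and 740 none, by the platform annotation, and 14941 were matched to RefSeq by Entrez number. Where a gene had several clusters (135 genes) the brightest was kept, which left 14860 genes. Arrays were grouped by the age in their titles.

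With limma (3.58.1, R 4.3.3) 1 model was fitted to all genes and all 28 arrays, with the ages as groups (21 residual degrees of freedom), and p-values were adjusted over all genes by Benjamini-Hochberg, with 0.05 as the threshold. Changes are P4 minus P2 in log2. The lists give counts and medians only. The comparison, its members and the 46 gene lists were chosen with earlier results of these data known. Named genes were up to 15 called genes per direction with the largest change and no overlap, filled up to 10 by smallest p, up to 8 called members of each list or otherwise its 3 smallest p, and a fixed set of rod and cell cycle genes. The procedure was tested on simulated data. Alternatives covered normalization, brightness filters, arrays in the fit, blocks, array weights, folds and each array left out. The number of arrays limits the precision.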

Additional observations from a re-analysis of the deposited data

Results flagged for a closer look

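In 88 genes and lists tested in the 4 P4 arrays, 6 had an array whose gap to the nearest other was too large a share of the group's range (Dixon's test, 95% level), and chance gives such a gap in about 1 in 20 groups. Tpx2 stood at 6.39 in P4 replicate 2, against 7.01 to 7.10 in the other P4 arrays. Gnat1 stood at 7.02 in P4 replicate 2, against 8.12 to 8.25. Cdkn1b stood at 10.22 in P4 replicate 1, against 9.57 to 9.64. Prdm1 stood at 11.06 in P4 replicate 1, against 10.84 to 10.85. The median of the sex chromosome list relative to the P2 means was 2.97 in P4 replicate 3, against -1.40 to -1.17. The median of the pigment epithelium list was 0.12 in P4 replicate 1, against -0.05 to -0.04. Prox1 changed differently after P4 than before it, with a difference of the intervals of 2.77 (adjusted p = 0.0395). Among the 1759 clusters with several symbols or none, which no comparison above uses, 1 passed the test, at 0.53 higher in P4 rods (adjusted p = 0.0497).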

How the results depend on the processing

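No gene that passed changed sign under the alternatives run with it in the fit. Of the lists, those with a median near 0 changed sign in some of their 20 alternatives. The number was 8 for astrocyte, 7 for pigment epithelium and 6 for fatty acid and phospholipid synthesis genes. It was 5 for the Notch pathway, oxidative phosphorylation, ganglion cell and microglia genes, and 4 for all genes, the tricarboxylic acid cycle and immediate early genes. It was 3 for glycolysis, hypoxia and lens, 2 for cell death, splicing and neurogenic genes, and 1 for extracellular matrix. With 19 alternatives each, the sex chromosome list changed sign in 6 and the vessel list in 2. The 6 cell division lists and phototransduction kept their sign in all 20. The count of 12 genes became 11 after quantile normalization, 13 after cyclic loess, 4 at 2-fold or more, 1 and 0 at a mean level of at least 6 and 7, 31 with array weights, and 0 with the arrays of P2 and P4 or of P2, P4 and P6 alone. Leaving out 1 array gave 5 to 30. Among the 18 alternatives that tested them, Bub1 and Mgst1 missed the threshold in 3. These were the 7-array fit, the 11-array fit and the fit with a block over P2 and P4 replicates 1 to 3. Both brightness filters left Bub1 and Mgst1 out. With the replicate number as a block (P2 and P4 replicates 1 to 3) the count was 0. With it as a random block over all arrays the count was 12. Deviations of same-numbered arrays correlated at 0.052, -0.057 and -0.007, and those of P2 replicate 3 and P4 replicate 4 at 0.162. Matching equal numbers cannot show a split between groups of numbers. The second principal component of the 7 arrays, their second main direction of variation (20.6% of the variance), had such a split. It was 15.48 and 6.01 in P2 replicates 1 and 2 and 13.47 and 6.69 in P4 replicates 1 and 2. In P2 replicate 3 it was -10.88, and in P4 replicates 3 and 4 it was -15.44 and -15.34. What this split reflects was not tested. For P6 against P4 the count of 351 became 84 at 2-fold, 229 at 1.5-fold and 72 with P2, P4 and P6 alone. The count of 25 for the difference of the intervals became 2 with those 11 arrays and 9 to 29 with 1 array left out. The kinetochore median was -0.27 at a mean of at least 7 and -0.88 to -0.39 with 1 array left out, and the G1 to S median was -0.34 at a mean of at least 7. The following alternatives were chosen after seeing the data. Leaving out both arrays with Y-linked signal gave 2 genes, 219 for P6 against P4 and 10 for the difference of the intervals, and leaving out P6 replicate 1 gave 22 genes. The cause was not tested, apart from the fewer arrays or genes that some alternatives use.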
